A study of Homo sapiens with 6 samples.

Results

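The genes described here are the receptor chains for type I and type II interferon, a pair of the kinases bound to them, STAT2 and the feedback inhibitors SOCS1 and SOCS3. They were chosen by symbol, as 9 (IFNAR1, IFNAR2, IFNGR1, IFNGR2, JAK1, TYK2, STAT2, SOCS1 and SOCS3) of the 26485 symbols counted, and all 9 had enough counts to be tested. The cells were AF22, an established human line of neural stem cells grown from induced pluripotent stem cells; all 6 libraries come from this 1 line. Knockdown cells are labelled as carrying a knockdown of COMMD3 and of COMMD3-BMI1 in 3 libraries; the reagent is not described in the labels. Control cells carried shControl, a control short hairpin RNA, in 3 libraries and are labelled WT. Nothing in the labels says that replicates came from separate cultures, so a p-value here reflects the spread among libraries alone, possibly a technical one.

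Interferons act through cell-surface receptors made of different chains. Type I interferons, such as interferon beta, bind IFNAR1 and IFNAR2, which carry TYK2 and JAK1 on their inner side, while interferon gamma binds IFNGR1 and IFNGR2, which carry JAK1 and JAK2. The kinases phosphorylate STAT proteins. STAT2 and IRF9 are parts of the factor ISGF3, which binds the interferon-stimulated response element, while STAT dimers bind the gamma-activated site. SOCS proteins are induced by cytokines and in turn inhibit JAK kinases and receptors, which closes a negative feedback loop.

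The knockdown libraries held 9421178, 8574066 and 9692967 counts and the control libraries 11579849, 8798045 and 7294687. Of the genes named in the label, COMMD3 had 12.9, 11.3 and 10.5 CPM (normalised read counts, set to library sizes adjusted by TMM) in knockdown, against 31.7, 29.7 and 27.6 CPM in control (log2 fold change −1.37 with an SE of 0.0996, adjusted p = 2.34e-12 by edgeR). The readthrough COMMD3-BMI1 was listed at 0 counts in all 6 libraries, so its knockdown could not be checked. In GENCODE v29 on GRCh38, 27.3% of the exon bases of COMMD3 are shared with COMMD3-BMI1 on the same strand. The COMMD3 count may therefore leave out or include reads of the readthrough, depending on how the authors counted. BMI1, at 107, 103 and 105 CPM in knockdown and 113, 109 and 109 CPM in control, missed the threshold (log2 fold change −0.07, adjusted p = 0.206 by edgeR). Of 10 neural stem cell markers, 9 were tested, with 4 lower and none higher in knockdown. Of all 13632 tested genes, 18.1% were lower and 15.3% higher (edgeR adjusted p under 0.05). The 4 lower markers were NOTCH1, HES1, PROM1 and SOX2, with log2 fold changes of −0.44, −0.30, −0.26 and −0.15. The summed level of the neural stem cell markers was 2428 to 2548 CPM in knockdown and 2464 to 2632 CPM in control. Most of this sum came from VIM (1187 CPM in knockdown, 1150 CPM in control) and NES (703.4 and 659.5 CPM), which did not pass. It therefore says little about the other markers. SOX2 averaged 259.9 CPM in knockdown and 287.9 CPM in control, while HES5 was listed at 0 in every library. Of 13 leukocyte and microglia markers, 1 was tested and it did not pass. Their summed level was 4.07 to 4.63 CPM in knockdown and 4.06 to 5.83 CPM in control, and CD3E, NKG7, P2RY12 and SPI1 had no counts in any library. No list of other cell types had a member higher in knockdown, against 15.3% higher and 18.1% lower over all tested genes. Of 5 tested neuron markers 1 was lower, of 7 astrocyte and oligodendrocyte markers 3 were lower, and of 2 pluripotent cell markers 1 was lower. The summed levels of these lists were 756.1 to 794.9, 458.6 to 469.1 and 206.3 to 225.6 CPM in knockdown, against 827.9 to 874.9, 509.3 to 527.8 and 224.1 to 233.8 CPM in control. In bulk RNA, fewer cells of a type and less RNA per cell cannot be told apart, and the part of these markers in the results below was not tested.

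In knockdown cells SOCS1 and STAT2 rose and TYK2 fell, while the 4 interferon receptor chains, JAK1 and SOCS3 did not pass the test. The largest of these differences was in SOCS1, at 1.59-fold higher, followed by TYK2, at 1.42-fold lower, and STAT2, at 1.22-fold higher. Thus 3 of the 9 genes (33.3%) were called by the edgeR quasi-likelihood test at a Benjamini-Hochberg adjusted p under 0.05, 2 higher and 1 lower, where 33.3% of the 13632 tested genes were called, 15.3% higher and 18.1% lower. The share among the 9 genes was therefore the same as over all tested genes. The knockdown and control libraries did not overlap for 5 of the 9 genes (55.6%), against 44.3% of all tested genes. The median log2 fold change was 0.05 over the 9 genes and 0.0015 over all tested genes.

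**Figure D1:**
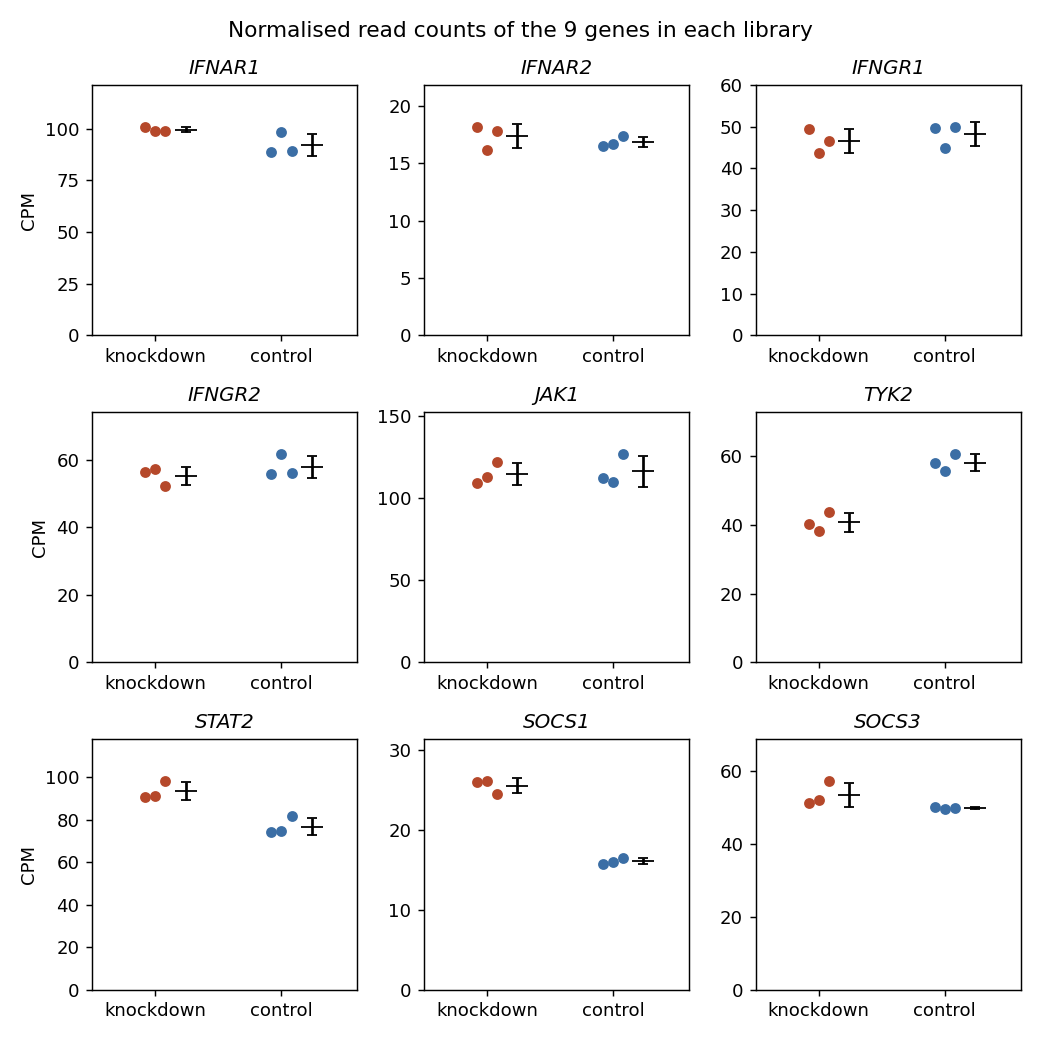
Each panel plots 1 gene in CPM, from 0, with 1 point per library for knockdown on the left and control on the right, and the mean with its SD beside the points (n = 3 each). The points of TYK2, STAT2 and SOCS1 are apart between the groups by more than the SD, with TYK2 at 38.2 to 43.7 CPM in knockdown and 55.5 to 60.5 CPM in control, while those of IFNAR2, IFNGR1, IFNGR2 and JAK1 overlap.

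Among the receptor chains for type I interferon, IFNAR1, the signalling chain that binds TYK2, had 101, 98.8 and 99.0 CPM in knockdown libraries, against 88.9, 98.3 and 89.4 CPM in control libraries. The knockdown libraries were all above the control libraries, but the nearest of the 2 groups, at 98.8 and 98.3 CPM, were almost level. Its mean was 99.46 ± 1.01 CPM in knockdown and 92.2 ± 5.27 CPM in control (SD, n = 3 each), with a log2 fold change of 0.11 (95% interval 0.0122 to 0.21, adjusted p = 0.0762 by edgeR). This missed the threshold, and passed it without control replicate 2 (adjusted p = 0.0214, the range over all alternatives being 0.0214 to 0.288), with counts scaled by library size only (adjusted p = 0.0365 by edgeR) and under a replicate block (adjusted p = 0.04 by edgeR).

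IFNAR2, the high-affinity chain that binds JAK1, had 18.2, 16.2 and 17.8 CPM in knockdown and 16.5, 16.7 and 17.4 CPM in control. The groups overlapped, and the log2 fold change of 0.05 did not pass (95% interval −0.149 to 0.256, adjusted p = 0.716 by edgeR). In GENCODE v29 on GRCh38, 39.1% of the exon bases of IFNAR2 are also exon bases of a gene on the other strand, IL10RB-DT, and 44.2% are shared with a gene on the same strand, AP000295.1, that runs on into IL10RB. Its count may therefore leave out or include reads of these genes, depending on how the authors counted.

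The chains of the interferon gamma receptor did not differ beyond the spread of the libraries. IFNGR1, the ligand-binding chain that carries JAK1, had 49.5, 43.6 and 46.5 CPM in knockdown and 49.7, 45.0 and 50.0 CPM in control. IFNGR2, the second chain, which carries JAK2, had 56.4, 57.3 and 52.3 CPM in knockdown and 55.9, 61.8 and 56.0 CPM in control. The libraries overlapped for both genes, and neither passed: the log2 fold change was −0.05 for IFNGR1 (95% interval −0.181 to 0.081, adjusted p = 0.584 by edgeR) and −0.07 for IFNGR2 (95% interval −0.188 to 0.0536, adjusted p = 0.408 by edgeR). Of the exon bases of IFNGR2, 12.8% are also exon bases of TMEM50B on the other strand.

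The receptor genes IFNAR2, IFNAR1 and IFNGR2 lie close to each other. IFNAR2 (ENSG00000159110, 33229901 to 33265675), IFNAR1 (ENSG00000142166, 33324477 to 33359862) and IFNGR2 (ENSG00000159128, 33402896 to 33479348) are on the plus strand of chromosome 21, within 249 kb, with IL10RB (ENSG00000243646, 33266358 to 33310187) between the first pair. IL10RB, a receptor chain shared by interleukin-10 and type III interferon, had 17.9, 18.4 and 17.1 CPM in knockdown, against 13.3, 14.5 and 10.9 CPM in control. It was the 1 gene of the 4 to be called, with a log2 difference of 0.45 (its SE 0.11, adjusted p = 0.00214 by edgeR), and all its knockdown libraries lay above all control libraries. In GENCODE v29, 38.1% of its exon bases are shared with the same readthrough gene AP000295.1. IFNGR1 (ENSG00000027697) lies apart, on the minus strand of chromosome 6 from 137197484 to 137219449.

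Of the kinases, TYK2 fell and JAK1 did not pass. TYK2, the kinase of IFNAR1 (ENSG00000105397, minus strand of chromosome 19, 10350529 to 10380676), had 40.2, 38.2 and 43.7 CPM in knockdown, against 57.7, 55.5 and 60.5 CPM in control. Each knockdown library was below each control library, and the level in knockdown was 70.3% of that in control. The means were 40.7 ± 2.8 CPM in knockdown and 57.91 ± 2.51 CPM in control (SD, n = 3 each), a log2 difference of −0.50 (SE 0.0628, 95% interval −0.631 to −0.374, adjusted p = 2.16e-07 by edgeR). In size this was larger than the log2 fold changes of 92% of all tested genes. In GENCODE v29 TYK2 shares no exon base with another gene, and neither do STAT2, SOCS1, SOCS3, IFNAR1 and IFNGR1.

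JAK1, which pairs with TYK2 at the type I receptor (ENSG00000162434, minus strand of chromosome 1, 64833229 to 64966504), had 109, 113 and 122 CPM in knockdown and 112, 110 and 127 CPM in control. The groups overlapped, and the log2 fold change of −0.02 did not pass (95% interval −0.124 to 0.0915, adjusted p = 0.842 by edgeR) and changed sign with counts scaled by library size only, to 0.0047. There were 2.71, 2.95 and 2.79 JAK1 counts for each TYK2 count in knockdown libraries, against 1.95, 1.98 and 2.10 in control libraries. The ratios did not overlap, with the two-sided exact permutation test giving p = 0.1, the smallest that 3 against 3 libraries allow. They reuse the TYK2 counts tested above and are not a separate observation. The same ratio of IFNAR1 to IFNAR2 was 5.73 ± 0.327 in knockdown and 5.48 ± 0.38 in control, and that of IFNGR1 to IFNGR2 was 0.843 ± 0.0704 in knockdown and 0.837 ± 0.0938 in control (SD, n = 3 each); both overlapped (exact permutation p = 0.4 and 0.9). Over the 4 pairs of genes compared in this way, no ratio could pass a threshold of 0.05, and each exact p of 0.1 became 0.2 after Benjamini-Hochberg adjustment.

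**Figure D2:**
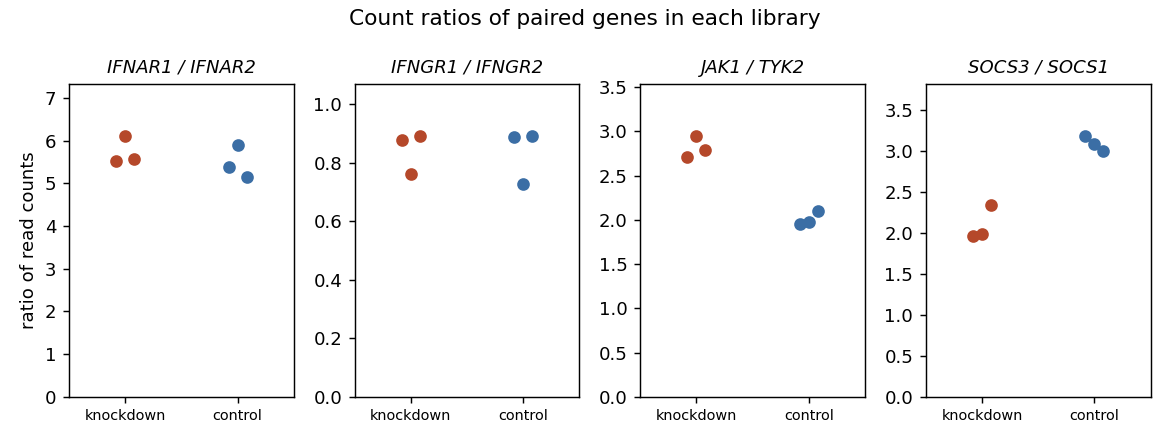
Each panel plots the ratio of the read counts of 2 genes, from 0, with 1 point per library for knockdown on the left and control on the right. The ratio of JAK1 to TYK2 is 2.71 to 2.95 in knockdown and 1.95 to 2.10 in control, that of SOCS3 to SOCS1 is 1.97 to 2.34 in knockdown and 3.01 to 3.19 in control, and the receptor chains overlap between the groups.

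The sequence upstream of the TYK2 start is shown because TYK2 was the 1 of the 9 genes to fall, and because it holds repeats of the CCAAT box, a common promoter element bound by the factor NF-Y. It is given 5′ to 3′ on the minus strand of GRCh38.p14 (RefSeq), chr19:10380677-10380822, from 250 to 105 bases before the RefSeq start site, with CCAAT in capitals.
TYK2: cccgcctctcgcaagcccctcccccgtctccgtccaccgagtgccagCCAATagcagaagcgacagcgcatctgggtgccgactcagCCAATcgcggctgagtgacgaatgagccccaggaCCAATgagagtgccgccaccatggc
The 250 bases before the start site hold 6 copies of CCAAT, counted on both strands and all found as spelled, of which 3 lie in the stretch shown. At least 1 copy is found in 32.0% of 35116 RefSeq promoter windows of the same length, and 6 or more in 0.105%. CCAAT was counted after the TYK2 sequence had been seen, and a match is a description of letters, not evidence of binding.

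STAT2, the member of ISGF3 that docks on the type I receptor (ENSG00000170581, minus strand of chromosome 12, 56341597 to 56360155), had 90.6, 91.1 and 98.2 CPM in knockdown, against 74.2, 74.6 and 81.5 CPM in control. All knockdown libraries were above all control libraries, and the means were 93.31 ± 4.27 CPM in knockdown and 76.8 ± 4.11 CPM in control (SD, n = 3 each). The log2 fold change was 0.29 (SE 0.051, 95% interval 0.185 to 0.393, adjusted p = 4.94e-05 by edgeR). The rise was smaller than that of its partner in ISGF3, IRF9, given side by side here from the list of other JAKs and STATs. IRF9 had 99.2, 96.0 and 81.7 CPM in knockdown, against 9.58, 11 and 10.4 CPM in control (log2 fold change 3.17 with an SE of 0.0867, adjusted p = 1.46e-23 by edgeR). The 95% intervals of the log2 fold changes, 0.185 to 0.393 for STAT2 and 2.99 to 3.35 for IRF9, were apart from each other. In GENCODE v29, 48.4% of the exon bases of IRF9 are shared with AL136295.5 on the same strand.

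SOCS1, which binds JAK kinases and blocks their activity (ENSG00000185338, minus strand of chromosome 16, 11254405 to 11256200), had 26.0, 26.1 and 24.5 CPM in knockdown, against 15.7, 16.0 and 16.5 CPM in control. The groups were far apart relative to their spread, with means of 25.51 ± 0.89 CPM in knockdown and 16.08 ± 0.417 CPM in control (SD, n = 3 each). The log2 fold change was 0.67 (SE 0.0904, 95% interval 0.484 to 0.853, adjusted p = 8.3e-07 by edgeR), larger in size than those of 95.8% of all tested genes. It rests on 248, 224 and 238 counts in knockdown libraries and 182, 140 and 118 in control libraries.

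SOCS3, the family member that also acts on the receptor chain gp130 (ENSG00000184557, minus strand of chromosome 17, 78356778 to 78360077), had 51.1, 51.9 and 57.2 CPM in knockdown, against 50.2, 49.5 and 49.7 CPM in control. The knockdown libraries were all above the control libraries, by as little as 0.9 CPM between the nearest, and the log2 fold change of 0.10 did not pass (95% interval −0.0207 to 0.224, adjusted p = 0.198 by edgeR). There were 1.97, 1.99 and 2.34 SOCS3 counts for each SOCS1 count in knockdown libraries, against 3.19, 3.09 and 3.01 in control libraries, without overlap (exact permutation p = 0.1, the smallest possible). These ratios reuse the SOCS1 counts already tested and are not a separate observation.

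The upstream sequences of SOCS1 and STAT2, the pair of genes that rose, are shown with the letters GAAANNGAAA, a core of the interferon-stimulated response element, in capitals. Both are given 5′ to 3′ on the minus strand of GRCh38.p14 from RefSeq, SOCS1 as chr16:11256205-11256454, the 250 bases before its start site, and STAT2 as chr12:56360156-56360357, from 250 to 49 bases before its start site.
SOCS1: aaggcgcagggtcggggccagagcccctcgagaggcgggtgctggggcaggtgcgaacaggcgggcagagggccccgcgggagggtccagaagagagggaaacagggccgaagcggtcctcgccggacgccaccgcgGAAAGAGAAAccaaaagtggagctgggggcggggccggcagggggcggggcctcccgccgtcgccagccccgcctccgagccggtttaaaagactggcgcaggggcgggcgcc
STAT2: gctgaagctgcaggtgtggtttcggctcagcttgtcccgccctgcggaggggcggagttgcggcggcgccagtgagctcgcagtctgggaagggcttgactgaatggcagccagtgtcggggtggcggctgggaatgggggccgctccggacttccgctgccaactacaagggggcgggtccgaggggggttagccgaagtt
The SOCS1 window holds GAAAGAGAAA once, from 113 to 104 bases before the start site, at 11256308 to 11256317. No match lies in the 250 bases before the STAT2 start site. Of the 9 genes, 8 were found among the RefSeq promoters, with 13 start sites in all, and the SOCS1 window was the 1 of these to hold GAAANNGAAA on either strand, which 3.02% of 35116 promoter windows of this length hold. The gamma-activated site TTCNNNGAA, which reads the same on both strands, was in none of the 13 windows and in 6.57% of all windows. The 3.02% is a share for a single window, whereas 13 windows were searched here. A match is a description of letters, not evidence of binding, and its part in the rise of SOCS1 was not tested. A missing match says only that these letters are not in the window.

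Scaled by transcript length, the 9 genes spanned a 7.04-fold range in knockdown and a 6.62-fold range in control. In CPM per kilobase of the longest coding transcript in GENCODE v29, the level in knockdown was highest for STAT2, at 28.6 ± 1.3, then IFNGR2, at 24.9 ± 1.2, and JAK1, at 22.7 ± 1.32. SOCS3 followed at 19.5 ± 1.21, IFNGR1 at 18.5 ± 1.17, IFNAR1 at 16.2 ± 0.198, SOCS1 at 14.3 ± 0.502, TYK2 at 9.36 ± 0.64 and IFNAR2 at 4.06 ± 0.247 (SD, n = 3 each). The libraries of neighbours in this order overlapped for IFNGR2 and JAK1 and for SOCS3 and IFNGR1, and were apart for the other neighbours. In control the mean level per kilobase was highest for IFNGR2, at 26.1 ± 1.52, before STAT2, at 23.6 ± 1.26, and JAK1, at 23.0 ± 1.84. The control libraries of STAT2 (22.8 to 25.0) and JAK1 (21.8 to 25.2) overlapped, and JAK1 reached the lowest IFNGR2 library (25.2). TYK2, at 13.3 ± 0.576 in control, was above SOCS1, at 9.01 ± 0.227. On this scale TYK2 and SOCS1 thus stood in the opposite order in the groups, with SOCS1 above TYK2 in all 3 knockdown libraries and below it in all 3 control libraries. This switch depends on the transcript length used. In CPM, TYK2 was above SOCS1 in both groups, at 40.7 against 25.51 in knockdown and 57.91 against 16.08 in control. Which transcripts the cells expressed was not tested. IFNAR2, at 3.94 ± 0.11 in control, was lowest in both groups. Parts of its exons are shared with the genes given above.

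**Figure D3:**
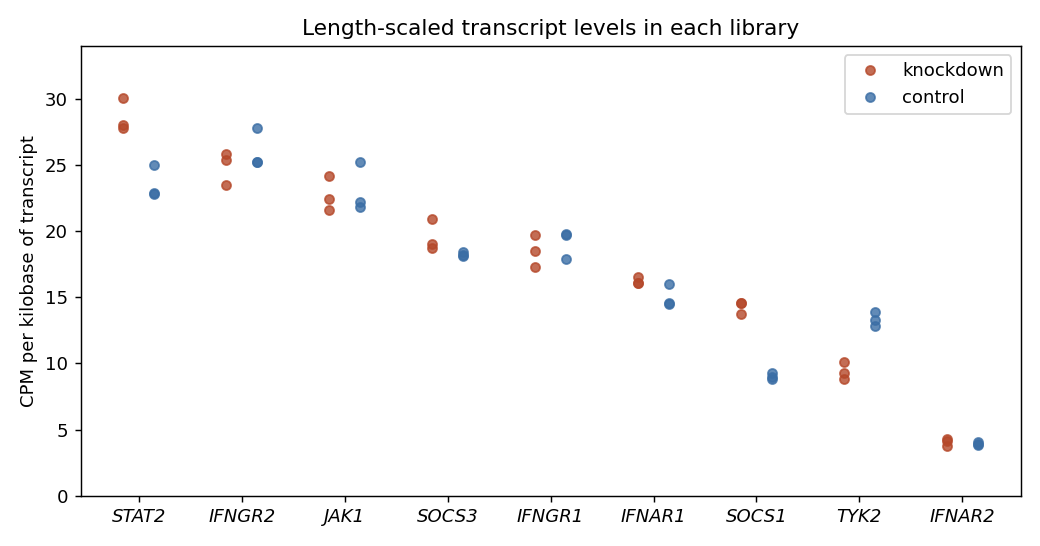
The vertical axis is the level in CPM per kilobase of the longest coding transcript, from 0, with 1 point per library, knockdown left of control for each gene, and genes in order of their mean in knockdown. STAT2 is highest in knockdown, at 27.8 to 30.1, IFNAR2 is lowest in both groups, and SOCS1 lies above TYK2 in knockdown and below it in control.

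Genes called in either direction were found among the other genes of the pathway, as over all genes. Over 6 lists with 79 genes, 44 were tested, of which 8 rose and 10 fell, where 15.3% of all tested genes were higher and 18.1% lower. The other 26 missed the threshold, and the median log2 fold change was −0.06. The number that fell was 6 without knockdown replicate 1 and 6 without knockdown replicate 2.

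Of 8 other JAK and STAT genes with IRF9, 2 rose, 3 fell and 3 missed the threshold, and the median of the list was −0.17 on the log2 scale. Beside IRF9, STAT4, which transmits interleukin-12 signals, rose to 3.63 ± 0.299 CPM in knockdown, against 1.75 ± 0.474 CPM in control (SD, n = 3 each; log2 fold change 1.11, adjusted p = 0.000805 by edgeR). STAT3, the main STAT of the gp130 cytokines and of astrocyte formation, had 132, 134 and 135 CPM in knockdown, against 203, 207 and 214 CPM in control. Its libraries did not overlap, with a log2 fold change of −0.64 (its SE 0.0432, adjusted p = 4.6e-13 by edgeR). STAT6, the STAT of interleukin-4, fell to 80.05 ± 4.65 CPM in knockdown, against 93.04 ± 4.06 CPM in control (adjusted p = 0.00176 by edgeR). JAK3 fell to 14.28 ± 0.92 CPM in knockdown, against 18.03 ± 1.33 CPM in control (adjusted p = 0.0112 by edgeR), a call that DESeq2 did not make (adjusted p = 0.0675), nor did edgeR without knockdown replicate 1 (0.0666) or control replicate 2 (0.0506). JAK2, the kinase of IFNGR2, had 18.07 ± 1.46 CPM in knockdown and 19.68 ± 2.01 CPM in control, short of the threshold (log2 fold change −0.13, adjusted p = 0.324 by edgeR), and STAT5A and STAT5B missed it too. STAT6, JAK3 and JAK2 are named after their values were seen.

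Of the other 6 SOCS family genes, 1 rose, 1 fell and 4 missed the threshold, and the median of the list was −0.05 on the log2 scale. SOCS2, which restrains growth hormone signalling, fell to 13.14 ± 0.919 CPM in knockdown, against 19.25 ± 0.8 CPM in control (SD, n = 3 each; log2 fold change −0.55 with an SE of 0.104, adjusted p = 0.000117 by edgeR). SOCS7 rose to 117.8 ± 1.81 CPM in knockdown, against 102.7 ± 1.86 CPM in control (log2 fold change 0.20, adjusted p = 0.000849 by edgeR). With SOCS1, 3 of the 8 SOCS family genes tested were called, against 33.3% of all tested genes.

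Of 9 tested genes among 10 other inhibitors of JAK-STAT signalling, 2 rose, 2 fell and 5 missed the threshold, and the median of the list was −0.05 on the log2 scale. USP18, which removes ISG15 from proteins and restrains the type I receptor at IFNAR2, had 53.8, 41.4 and 53.9 CPM in knockdown, against 7.68, 10.3 and 7.43 CPM in control (log2 fold change 2.56 with an SE of 0.114, adjusted p = 6.74e-18 by edgeR). The SUMO ligase PIAS3, an inhibitor of STAT3, fell to 61.77 ± 5.22 CPM in knockdown, against 72.65 ± 0.526 CPM in control (SD, n = 3 each; adjusted p = 0.00176 by edgeR). PIAS4 rose to 72.48 ± 2.25 CPM in knockdown, against 64.82 ± 3.36 CPM in control (adjusted p = 0.0151 by edgeR), a call lost by DESeq2 (adjusted p = 0.0954) and without control replicate 1 (adjusted p = 0.136). The phosphatase PTPN11, named after its values were seen, was lower by 0.13 on the log2 scale (adjusted p = 0.0233 by edgeR), and was not called when knockdown replicate 1 (0.156), knockdown replicate 2 (0.0788) or control replicate 1 (0.0851) was left out.

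Of 15 tested genes among 22 other cytokine receptors that use JAK kinases, 2 rose, 4 fell and 9 missed the threshold, and the median of the list was −0.125 on the log2 scale. IL13RA1, a chain of the interleukin-13 receptor, rose to 73.33 ± 3.06 CPM in knockdown, against 63.03 ± 1.91 CPM in control (SD, n = 3 each; log2 fold change 0.22, adjusted p = 0.00189 by edgeR), as did IL10RB. IL7R, the interleukin-7 receptor, fell to 1.49 ± 0.3 CPM in knockdown, against 3.12 ± 0.705 CPM in control (log2 fold change −1.001, adjusted p = 0.00436 by edgeR). LIFR, the receptor for leukemia inhibitory factor and the most abundant of these, had 562, 580 and 566 CPM in knockdown, against 620, 591 and 652 CPM in control (log2 fold change −0.12, adjusted p = 0.0316 by edgeR). Its call was lost with any library but control replicate 2 left out, 5 of 6 in turn, with adjusted p from 0.0609 to 0.136. EPOR (adjusted p = 0.0144 by edgeR) and IL11RA (adjusted p = 0.045 by edgeR) also fell and lost their calls by DESeq2 (adjusted p = 0.0799 and 0.177). The libraries of EPOR overlapped, at 8.27, 6.63 and 7.61 CPM in knockdown and 11.1, 11.4 and 8.13 CPM in control. The call of EPOR was also lost without knockdown replicate 2 (0.0735), control replicate 1 (0.0792) or control replicate 2 (0.0752), and that of IL11RA without knockdown replicates 1 (0.185) or 2 (0.0762) and control replicates 1 (0.256) or 3 (0.0672), all as adjusted p by edgeR, and with upper-quartile (0.059) or library-size scaling (0.0772). LIFR, EPOR and IL11RA are named after their values were seen.

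Of 6 tested genes among 11 STAT3 and gp130 targets, 1 rose and 5 did not pass, and the median of the list was 0.04 on the log2 scale. The kinase gene PIM1 rose to 70.39 ± 4.63 CPM in knockdown, against 59.18 ± 5.91 CPM in control (log2 fold change 0.26 with an SE of 0.0621, adjusted p = 0.00136 by edgeR). Its libraries overlapped, at 72.8, 65.1 and 73.3 CPM in knockdown and 57.1, 54.6 and 65.9 CPM in control. The interferons themselves were barely counted: 17 of 22 genes had no counts in any library, and none was tested. Over all 22 there were 16 counts in the 3 knockdown libraries and 3 in the 3 control libraries. IFNB1, which encodes interferon beta and was singled out with its values known, had 3, 4 and 5 counts in knockdown libraries and 0 in each control library. Against a floor of 3 counts over the control group, it was at least 3.94-fold higher, a bound that covers counting error of the control group only.

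**Figure D4:**
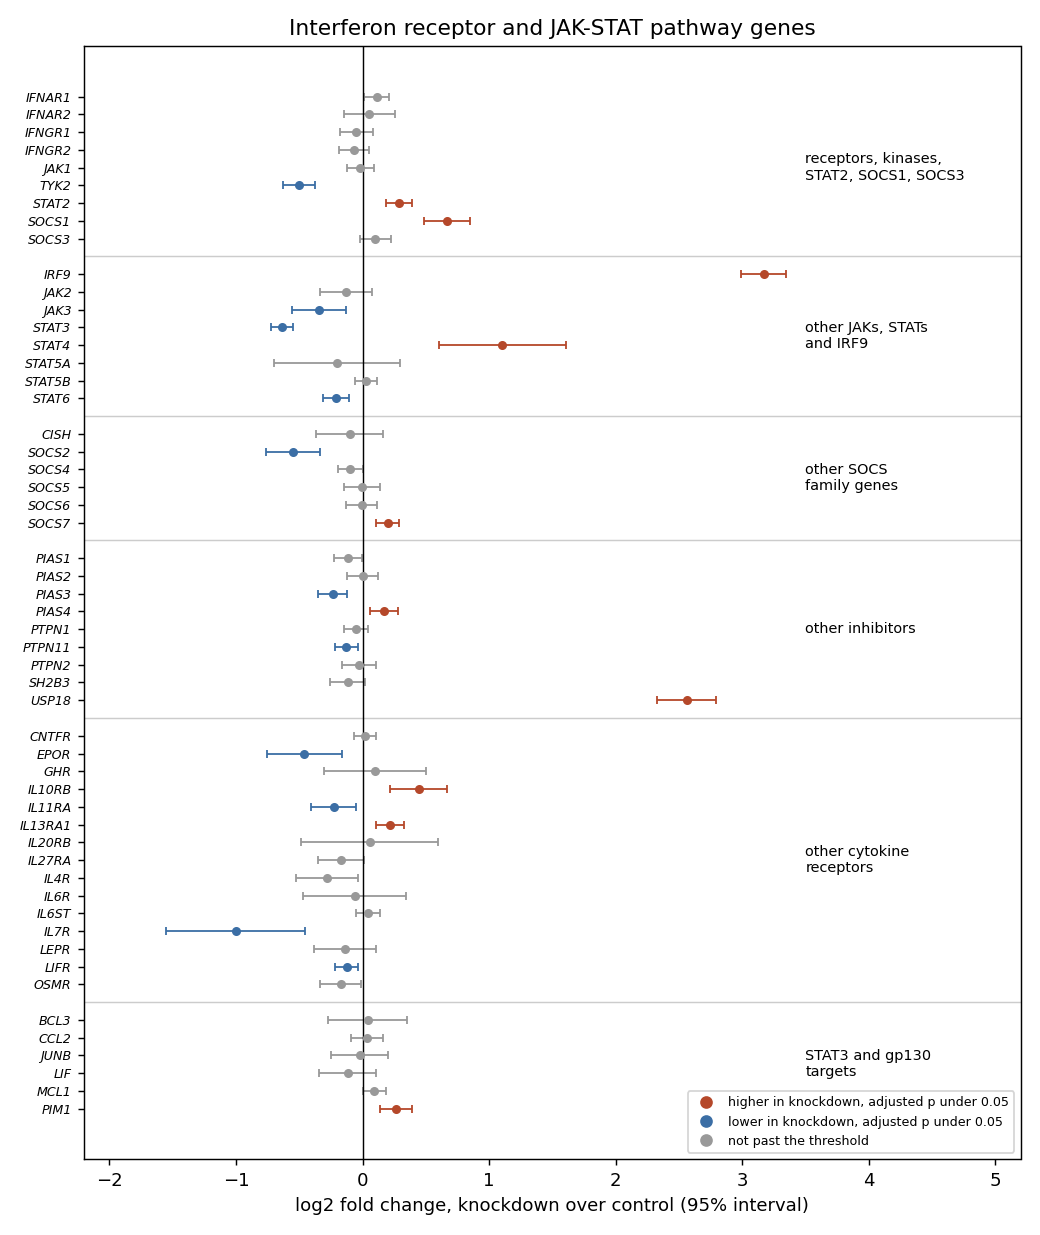
The horizontal axis is the log2 fold change of knockdown over control with its 95% interval, with 1 row per tested gene of the 9 genes (top) and of the pathway lists, red where higher and blue where lower in knockdown at an edgeR adjusted p under 0.05, and grey otherwise. IRF9 and USP18 stand far to the right, at 3.17 and 2.56, while the receptor chains and JAK1 differ by at most 0.111 in size.

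Genes with the most similar pattern were looked up for SOCS1, TYK2 and STAT2 over 11646 genes with a mean of 5 CPM or more, by the root mean square distance over 6 libraries between log2 CPM profiles set to the control mean. Nearest to SOCS1 among the genes reported here were APOL2 (distance 0.0329) and CD164 (0.0593), with log2 fold changes of 0.63 and 0.66. Nearest to TYK2 were SLC6A6 (distance 0.0366), UBASH3B (0.0371) and KDR (0.0393), with log2 fold changes from −0.51 to −0.49. Nearest to STAT2 were TRMT1 (distance 0.0143), C20orf194 (0.0144) and PVRL2 (0.015), with log2 fold changes of 0.28, 0.29 and 0.28. The distance includes the shift between the groups, so similar log2 fold changes follow from the search and are not a separate result.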

How the data were processed

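Total RNA, 700 ng per library, was used with a directional kit, per the labels' protocols. Trim Galore 0.6.6, STAR 2.7.10a and bedtools are listed in the submitters' processing notes, with hg38 as the build. How reads were assigned to genes, with which annotation and strand setting, is not given in the sources used here. Per the files, the authors deposited whole-number read counts for 26485 gene symbols per library, not normalised. Without the strand setting, reads of genes that overlap may not be told apart.

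Groups came from the sample titles. Genes were filtered with filterByExpr (13632 kept), scaled by TMM and compared by the quasi-likelihood test of edgeR 4.0.16 (R 4.3.3) with no covariate. The method was tested on simulated data with the same spread set for every gene, which does not measure its power in these data. Adjustment of p-values was by Benjamini-Hochberg across the tested genes. The SE is the log2 fold change divided by the square root of F, and 95% intervals use the same fit. Ratios were tested on the log2 scale by exact permutation of libraries. Each pair of replicates differed by more than sampling noise (chi-square per degree of freedom 1.23 to 1.994 over genes with 10 or more counts). This does not show that they came from separate cultures. Each library was counted once. Floors are 3 counts and cover counting error only. At 0 counts a library allows up to 0.259 to 0.42 CPM.

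The rule named the 9 genes, COMMD3, and of each pathway list the 3 called genes with the smallest adjusted p. Some genes of the lists are not reported here, and the counts leave them out. The genes and lists were chosen with earlier results of these data known. Positions are from GENCODE 29 on GRCh38, where 90.2% of the symbols were found; the window sequences end at the outermost start annotated there. Alternatives were scaling by RLE, by the upper quartile or by library size, DESeq2 1.42.0, voom of limma 3.58.1, no filter, a filter of at least 1 CPM in 3 libraries, a replicate block, each library left out in turn and an adjusted p under 0.01.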

Additional observations from a re-analysis of the deposited data

How the results depend on the processing

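TYK2, STAT2, SOCS1 and COMMD3 kept their direction and their call under all 14 alternatives that kept the threshold at an adjusted p of 0.05. Their log2 fold changes ran, in this order, from −0.55 to −0.46, 0.25 to 0.33, 0.65 to 0.70 and −1.45 to −1.30. Of 140 values for the 9 genes and COMMD3, 134 kept direction and side of the threshold. The exceptions were IFNAR1 and JAK1. IFNAR1 passed with library-size scaling (log2 fold change 0.13, adjusted p = 0.0365) and under a replicate block (0.11, adjusted p = 0.04), and ranged from 0.0796 to 0.161 with each library left out. JAK1 turned positive, and was not called, with library-size scaling (0.0047), and ranged from −0.0626 to 0.0471 with each library left out. The cause was not tested. Of the 9 genes, 2 to 3 were higher and 1 was lower under each alternative. The 4545 calls over all genes became 2877 by DESeq2 and 2943 at an adjusted p under 0.01. At that lower threshold, 5 pathway genes were lower instead of 10, and 7 were higher instead of 8. With a library left out, the calls over all genes were 3608 to 4297, and the pathway genes that fell 6 to 10. Of 252 values for the 18 called pathway genes over the 14 alternatives at 0.05, 24 lost the call. The calls lost at the lower threshold are not among these 24.

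Whether the replicate numbers pair the samples was not settled. Deviations of same-numbered libraries correlated weakly, at 0.0792, 0.00548 and 0.0713, but 4 of 6 libraries correlated best with their own number. The 6 best matches were taken from the same correlations and are not independent, so this count cannot settle the pairing. Under the replicate block, 2458 genes were higher and 2790 lower. Depth limits the interferons, which had at most 5 counts in a library.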
